A study of Mus musculus with 8 samples.

Results

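Histone-modifying enzymes were examined as a group of 75 genes in mature mouse eggs with and without the splicing regulator ESRP1. The members are the protein-coding genes whose symbols name them as lysine demethylases (Kdm), histone deacetylases (Hdac), sirtuins (Sirt), lysine methyltransferases (Kmt, Setd, Suv39h, Ehmt and Ezh), arginine methyltransferases (Prmt) or lysine acetyltransferases (Kat2 to Kat8). They are 75 of the 24860 genes listed in every library, and every annotated gene that the name patterns take was listed. Kat14 lies outside the patterns and is described among the partner enzymes. Membership rests on the symbol alone and used no measured value. Of the 75, 18 are lysine demethylases, 11 histone deacetylases, 7 sirtuins, 24 lysine methyltransferases, 8 arginine methyltransferases and 7 lysine acetyltransferases.

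The cells were MII oocytes, that is, eggs at the stage of ovulation, paused in the second meiosis, from C57BL/6 females at postnatal day 42. One group was wild type (WT) and the other was labelled Esrp1-KO, with the genotype Esrp1-/-, which the labels do not tie to a promoter, a Cre driver or a cell type. Each group had 4 libraries, each from a tube of 15 oocytes, and cDNA was made with Smart-seq2, which copies polyadenylated RNA and does not mark its strand. The replicates are described as biological, without word on how many animals filled a tube, and p-values here reflect how much tubes varied.

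Histone tails carry acetyl and methyl groups that acetyltransferases and methyltransferases add and that deacetylases and demethylases take off. Acetylation generally goes with open chromatin, whereas the effect of methylation depends on the residue. A full-grown oocyte has shut down transcription, and mRNAs stored in the egg supply such enzymes after fertilization. Several of the enzymes, the sirtuins among them, also act on other proteins, and some Setd members have main substrates that are not histones.

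Levels are FPKM, the fragments on a gene scaled by the length of the gene and the size of the library, as deposited. FPKM are relative within a library, so fewer copies per egg and a shift in the rest of the RNA cannot be told apart, nor can fewer eggs with a transcript and less of it in each. The libraries stood for 24910435 to 32337971 reads. The targeted gene, Esrp1, had 16.2 to 19.5 FPKM in WT and 2.31 to 3.83 in Esrp1-KO (log2 fold change −2.12 ± 0.15 SE, adjusted p = 1.32e-05, limma). All 10 oocyte markers were above 1 FPKM on average, with 15738 to 19866 FPKM summed in WT and 19232 to 25075 in Esrp1-KO. The largest part of these sums was H1foo. Within the list Zp1, Zp2, Zp3 and Zar1 rose 2.02-, 1.72-, 2.02- and 2.26-fold (adjusted p = 0.000696 to 0.0232, limma). Mos fell to 52.9% of WT (adjusted p = 0.00175, limma). Gdf9, Bmp15, Nlrp5, H1foo and Oosp1 did not pass the threshold of 0.05. Of 10 granulosa and cumulus cell markers listed only Cyp19a1 reached that mean, with 6.10 ± 0.71 FPKM in WT and 1.87 ± 0.39 in Esrp1-KO (adjusted p = 0.00012, limma). The list summed to 6.77 to 8.29 FPKM in WT and 2.55 to 3.63 in Esrp1-KO, a difference carried largely by Cyp19a1. Foxl2, Fshr, Cyp11a1 and Ptx3 were below 0.1 in every library, and Ptgs2 was above WT in every Esrp1-KO library, at no more than 0.510. The 8 immune markers summed to 1.201 to 2.25 FPKM in WT and 1.93 to 11.3 in Esrp1-KO, with Ptprc, Csf1r, Adgre1 and Itgam below 0.1 throughout. The highest sum was that of Esrp1-KO replicate 3, which had 5.44 FPKM of Lyz2 and 3.50 of Cd68. Lyz2 was at 0 in every WT library. H2-Aa was higher in Esrp1-KO (0.81 ± 0.12 to 1.62 ± 0.34 FPKM, adjusted p = 0.0124, limma). The 12 markers of the 2-cell embryo summed to 30.1 to 47.8 FPKM in WT and 31.2 to 42.8 in Esrp1-KO. Only Tcstv1 and Tcstv3 among them averaged 1 FPKM or more, and their means moved in opposite directions. Tcstv3 rose 1.84-fold with groups that did not overlap (7.86 ± 2.11 to 14.5 ± 4.41 FPKM, adjusted p = 0.0191, limma). Tcstv1 was at 72.6% of WT and did not pass (adjusted p = 0.0698, limma). The part of all these markers in the results below was not tested.

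The 8021 genes whose FPKM averaged 1 or more across libraries entered a limma fit on log2(FPKM + 1), with p-values adjusted over all of them and a threshold of 0.05. Because of the added 1, log2 fold changes of scarce genes come out too small. Of the 75 enzymes 38 reached this mean. In Esrp1-KO 5 of them went up, 7 went down and 26 did not pass, so that 31.6% changed. Of all genes tested 36.9% changed, 13.9% upward and 23.1% downward, so the share among the enzymes lay near that of the transcriptome. The groups did not overlap for 15 of the 38, 8 with Esrp1-KO above and 7 with WT above, and for 36.8% of all genes tested (13.5% with Esrp1-KO above and 23.3% with WT above). Their median log2 fold change was −0.01, beside −0.06 for all genes tested. With median-ratio scaling both medians turned positive, to 0.09 and 0.05, a shift of all genes by over 0.1, and the enzymes then gave 7 higher and 7 lower. Lower genes were 62.5% of all changed genes with FPKM as deposited and 48.6% with median-ratio scaling. All 12 enzymes that changed kept their direction in every alternative setting run. As their groups did not overlap, only the scalings among these settings could have turned a direction.

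**Figure D1:**
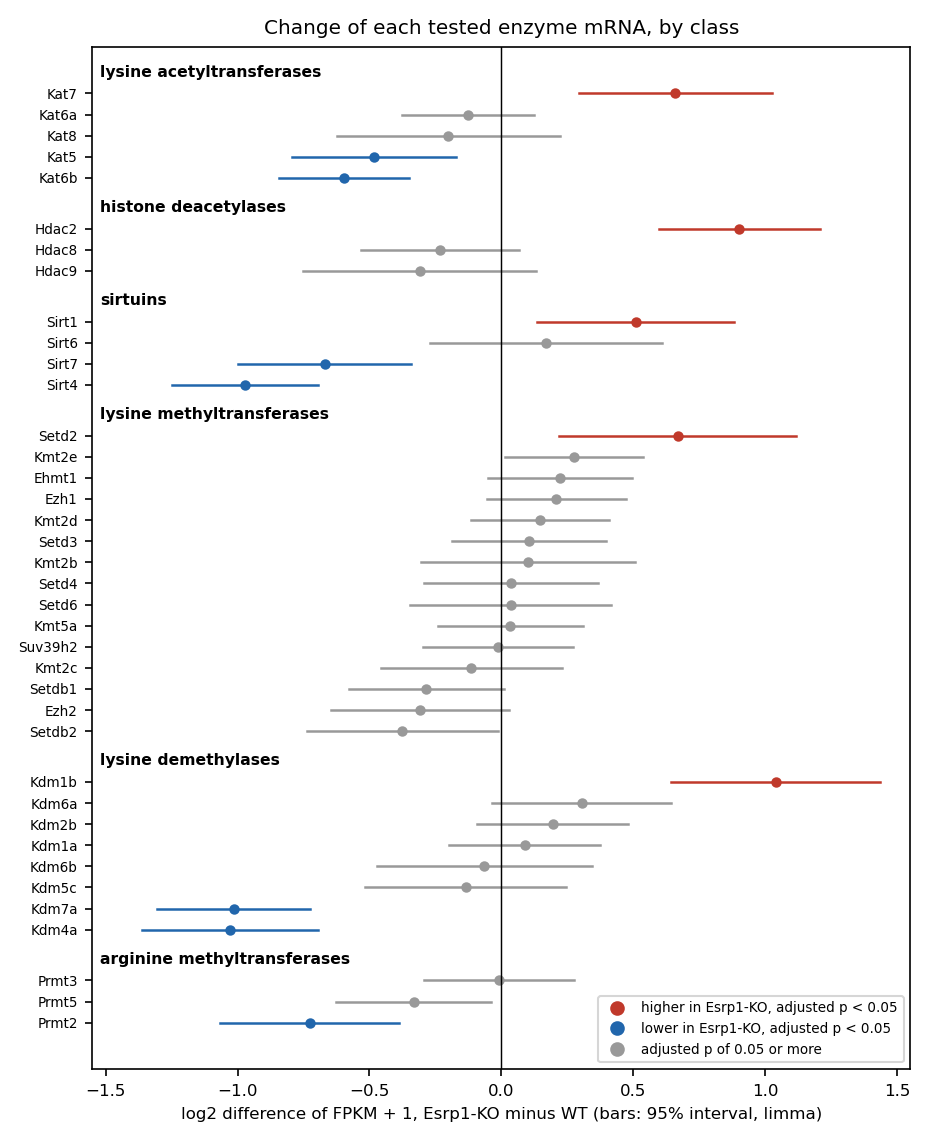
Log2 difference of FPKM + 1 (Esrp1-KO minus WT) for the 38 tested enzyme mRNAs, grouped by class, with 95% intervals from limma over 4 libraries per group. Points in red (5) and blue (7) passed an adjusted p of 0.05. The lysine methyltransferases hold 1 of these in 15 tested, beside 36.9% of all genes tested. In some settings 9 of the grey members turn sign.

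The 12 changed mRNAs were the acetyltransferases Kat7, Kat6b and Kat5, the deacetylase Hdac2, the sirtuins Sirt1, Sirt4 and Sirt7, the methyltransferase Setd2, the demethylases Kdm1b, Kdm4a and Kdm7a, and the arginine methyltransferase Prmt2. The changes were of moderate size: none exceeded 2.15-fold upward or fell below 41.5% of WT. The 150 bases upstream of the RefSeq start site (GRCm38.p6) are printed for the 2 risers and the 2 fallers whose log2(FPKM + 1) differed most. They run 5′ to 3′ on the strand of the gene. Whether the eggs use these starts was not tested. For Kdm7a the annotated gene, as given below, reaches 39206789 and so overlaps the printed stretch. As a percent of WT, Sirt7 and Sirt4 fell slightly further than Kdm7a. Capitals mark matches, on either strand, to any of 5 motifs. The GC box is spelled GGGCGG and is bound by SP factors. The CCAAT box is spelled as its name says and is bound by NF-Y. The core of sites for ETS factors was searched as CCGGAAG. An E-box of the kind bound by MYC and USF proteins was searched as CACGTG. The TATA box, bound by the general transcription machinery, was searched as TATAAA. No motif contains another, although neighbouring matches can overlap.

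Kdm1b (higher, chr13:47043349-47043498, plus strand): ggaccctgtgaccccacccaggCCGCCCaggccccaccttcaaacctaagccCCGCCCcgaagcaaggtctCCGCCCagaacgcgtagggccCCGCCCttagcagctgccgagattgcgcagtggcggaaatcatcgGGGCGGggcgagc
Hdac2 (higher, chr10:36974394-36974543, plus strand): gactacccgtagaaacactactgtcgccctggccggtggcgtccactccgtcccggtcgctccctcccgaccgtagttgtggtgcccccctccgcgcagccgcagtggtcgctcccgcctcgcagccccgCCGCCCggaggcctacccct
Kdm4a (lower, chr4:118180044-118180193, minus strand): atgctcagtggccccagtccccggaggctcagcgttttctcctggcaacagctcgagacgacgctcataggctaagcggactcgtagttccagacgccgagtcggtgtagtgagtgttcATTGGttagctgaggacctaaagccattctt
Kdm7a (lower, chr6:39206774-39206923, minus strand): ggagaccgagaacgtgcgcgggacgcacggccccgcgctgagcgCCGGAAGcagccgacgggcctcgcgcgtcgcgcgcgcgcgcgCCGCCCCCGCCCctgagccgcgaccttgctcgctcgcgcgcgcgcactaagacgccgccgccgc

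These 4 stretches held 70%, 72.7%, 56% and 81.3% G and C in the order printed. Kdm1b had 5 GC boxes, Hdac2 had 1 and Kdm7a had 2, while Kdm4a had a CCAAT box and no GC box. The full RefSeq windows span 250 bases before to 50 after a start, and 63 of the 75 enzymes had at least 1, with 86 windows in all. A GC box was present in 62.8% of the enzymes' windows and in 35.7% of all 32851 windows, and a TATA box in 4.65% and 13.6%. Of the 12 changed enzymes 9 had a GC box in a window, 4 of the 5 that rose and 5 of the 7 that fell, so its presence did not part the directions. A CCAAT box was found in 1 riser and 3 fallers, and the ETS core in 1 riser and 4 fallers. A CCAAT box was present in 41.9% of the enzymes' windows and 37.4% of all windows, and the ETS core in 16.3% and 8.86%. These shares are per window and the counts of changed enzymes are per gene, so they do not compare directly. A link of any motif with direction was not tested. All matches are of letters, not measured sites.

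**Figure D2:**
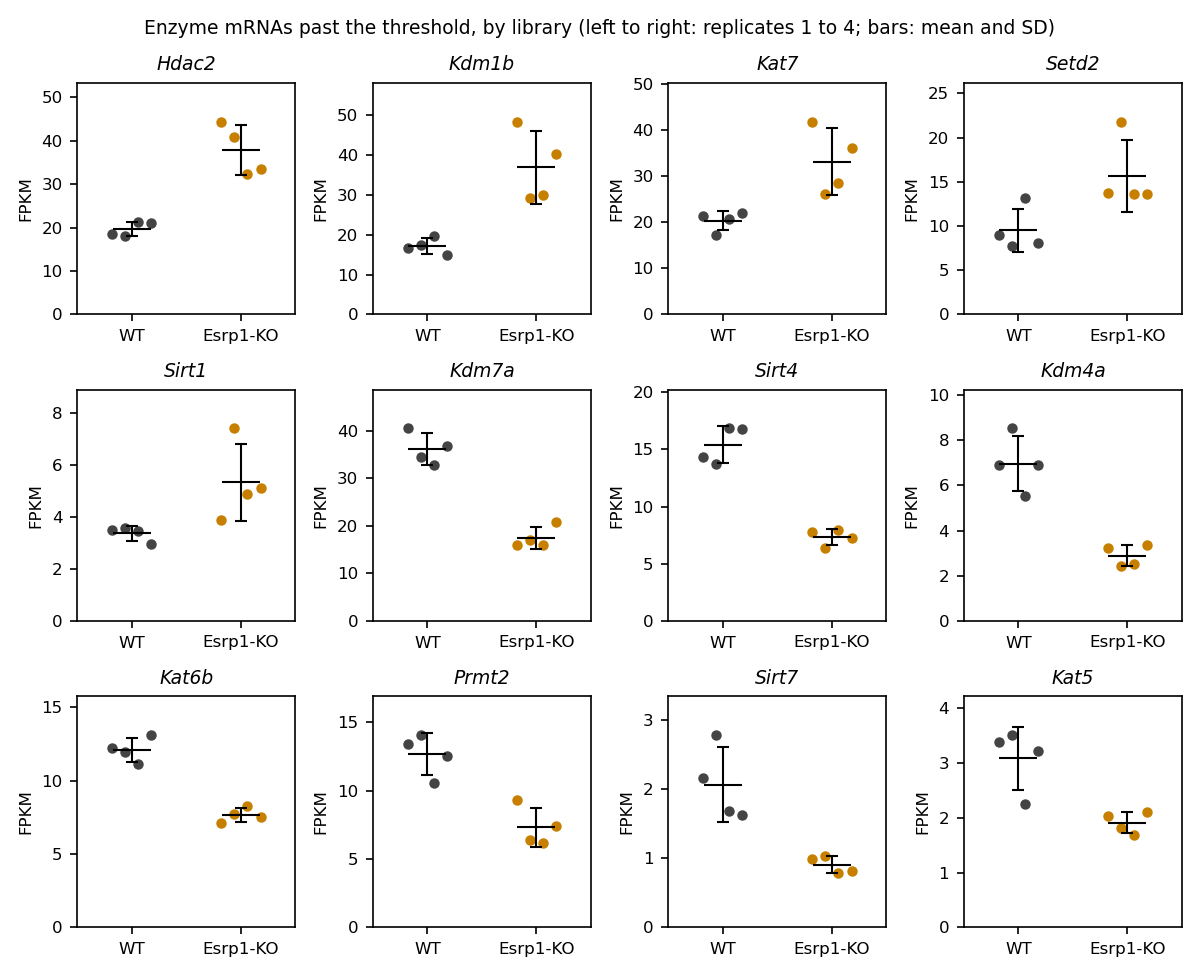
FPKM in each library for the 12 enzyme mRNAs past the threshold, with points for WT and Esrp1-KO in replicate order 1 to 4 and bars for the mean and SD. In each panel the lowest library of one group lies above the highest of the other. The panels for Kdm1b and Kat7 show Esrp1-KO replicates 1 and 4 above replicates 2 and 3.

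Among the enzymes that add acetyl groups, 3 of 5 tested acetyltransferases changed, 1 upward and 2 downward. Counts by class, here and below, stand beside the 36.9% of all genes tested that changed. They rest on 3 to 15 tested genes each, and no class was tested as a set. Kat7 (ENSMUSG00000038909, chromosome 11, 95274259 to 95310246), the catalytic subunit of the HBO1 complex that acetylates histones H3 and H4, had 21.3, 17.3, 20.7 and 22.1 FPKM in WT replicates 1 to 4 and 41.9, 26.1, 28.6 and 36.2 in Esrp1-KO. The groups did not overlap, and replicates 1 and 4 of Esrp1-KO were the higher ones. Its mean rose 1.63-fold, from 20.4 ± 2.10 (SD, n = 4) to 33.2 ± 7.22 FPKM (log2 fold change 0.66 ± 0.16 SE, adjusted p = 0.0111, limma). Kat7 was the most abundant acetyltransferase in both groups, with 38.6% to 46.7% of the summed FPKM of its class in WT and 56.7% to 69.9% in Esrp1-KO.

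Kat6b (ENSMUSG00000021767, chromosome 14, 21481434 to 21672478), a histone H3 acetyltransferase also known as MORF, moved the other way. It had 12.2, 11.9, 11.1 and 13.1 FPKM in WT and 7.08, 7.75, 8.29 and 7.51 in Esrp1-KO, with narrow spread in both groups. It fell to 63.3% of WT (12.1 ± 0.83 to 7.66 ± 0.51 FPKM, log2 fold change −0.60 ± 0.11 SE, adjusted p = 0.00245, limma). Its paralog Kat6a did not pass, at 8.21 ± 0.46 FPKM in WT and 7.45 ± 0.61 in Esrp1-KO (95% interval of the log2 difference −0.38 to 0.12).

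Kat5 (ENSMUSG00000024926, chromosome 19, 5603014 to 5610237), the TIP60 acetyltransferase of DNA repair and transcription, was low. It had 3.38, 3.52, 2.25 and 3.22 FPKM in WT and 2.03, 1.82, 1.69 and 2.11 in Esrp1-KO, where WT replicate 3 came close to the upper end of Esrp1-KO. Its fall to 61.9% of WT (log2 fold change −0.48 ± 0.14 SE, adjusted p = 0.0222, limma) lay near the threshold. Without WT replicate 1, 2 or 4 or Esrp1-KO replicate 3 its log2 fold change was −0.46 to −0.43 and no longer passed (adjusted p = 0.0529 to 0.0615), and with quantile normalization it was −0.36 (adjusted p = 0.0532). Exons of Rnaseh2c on the other strand cover 12.1% of Kat5, and that gene had at most 0.635 FPKM in any library. Kat8, which acetylates histone H4, had 1.95 ± 0.84 FPKM in WT and 1.51 ± 0.27 in Esrp1-KO and did not pass (adjusted p = 0.437, limma). Kat2a and Kat2b, the catalytic subunits of SAGA-type complexes, stayed at or below 0.915 FPKM.

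Of the mRNAs for enzymes that remove acetyl groups by a zinc-dependent mechanism, Hdac2 held most of the summed FPKM. Hdac2 (ENSMUSG00000019777, chromosome 10, 36974544 to 37001889), a nuclear class I deacetylase, had 18.4, 18.01, 21.3 and 20.97 FPKM in WT and 44.4, 40.96, 32.4 and 33.6 in Esrp1-KO. Every Esrp1-KO library lay well above every WT library. The mean rose 1.92-fold, from 19.7 ± 1.69 to 37.9 ± 5.79 FPKM (log2 fold change 0.90 ± 0.14 SE, adjusted p = 0.000831, limma). Hdac2 made up 78.1% to 82.9% of the summed FPKM of the 11 deacetylases in WT and 88.8% to 92.5% in Esrp1-KO. The summed level of the class moved with it, from 24.5 ± 1.47 to 41.7 ± 6.24 FPKM.

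The close paralog Hdac1 was scarce, with 1.43, 0.592, 0.526 and 0.371 FPKM in WT and 0.637, 0.816, 0.527 and 0.318 in Esrp1-KO. WT replicate 1 stood highest, and 35.5% of the 50-base stretches of Hdac1 also occur in transcripts of other genes. The main one is Gm10093, which had 1.61 FPKM in WT replicate 1 and at most 0.340 in the other libraries. How much of the Hdac1 value in that library is Hdac1 was not tested. Among the other deacetylases, Hdac8 (1.29 ± 0.27 to 0.946 ± 0.17 FPKM) and Hdac9 (1.39 ± 0.23 to 0.973 ± 0.48) were tested and did not pass. Hdac3, the catalytic subunit of the NCoR corepressors, ranged from 0.407 to 0.662 FPKM over the 8 libraries, Hdac6, a tubulin deacetylase, from 0.269 to 0.859, and Hdac4 from 0.174 to 0.368. Hdac5, Hdac7, Hdac10 and Hdac11 were listed at 0 in some libraries and reached at most 0.110.

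Sirtuins, deacylases that use NAD, changed in 3 of 4 members tested, beside 36.9% of all genes tested. Sirt4 (ENSMUSG00000029524, chromosome 5, 115478010 to 115484725), which works in mitochondria and not on chromatin, was the most abundant. It had 14.3, 13.7, 16.9 and 16.7 FPKM in WT and 7.80, 6.39, 7.97 and 7.28 in Esrp1-KO, so that the groups were far apart. It fell to 47.8% of WT (15.4 ± 1.63 to 7.36 ± 0.71 FPKM, log2 fold change −0.97 ± 0.12 SE, adjusted p = 0.000322, limma).

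Sirt7 (ENSMUSG00000025138, chromosome 11, 120618372 to 120625240), a sirtuin of the nucleolus, had 2.17, 2.79, 1.68 and 1.62 FPKM in WT and 0.985, 1.04, 0.793 and 0.817 in Esrp1-KO. The values did not overlap, and the fall was to 44.0% of WT (log2 fold change −0.67 ± 0.15 SE, adjusted p = 0.00598, limma). Sirt1 (ENSMUSG00000020063, chromosome 10, 63319005 to 63381704), the nuclear deacetylase of histones and transcription factors, moved upward, with 3.48, 3.58, 3.44 and 2.96 FPKM in WT and 3.87, 7.41, 4.89 and 5.12 in Esrp1-KO. Replicate 2 of Esrp1-KO was well above the rest and replicate 1 barely above WT. The 1.58-fold rise (log2 fold change 0.51 ± 0.17 SE, adjusted p = 0.0376, limma) was lost with no filter (adjusted p = 0.0891) and without any of 7 of the 8 libraries, the exception being Esrp1-KO replicate 1 (log2 fold change 0.36 to 0.53, adjusted p = 0.0578 to 0.0965). Sirt6 had 0.919 ± 0.44 FPKM in WT and 1.13 ± 0.36 in Esrp1-KO and did not pass. Sirt2, Sirt3 and Sirt5 stayed at or below 0.407. The summed level of the 7 sirtuins was 21.4 to 23.2 FPKM in WT and 14.6 to 16.0 in Esrp1-KO, and Sirt4 held 64.1% to 72.6% and 39.9% to 53.5% of it.

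**Figure D3:**
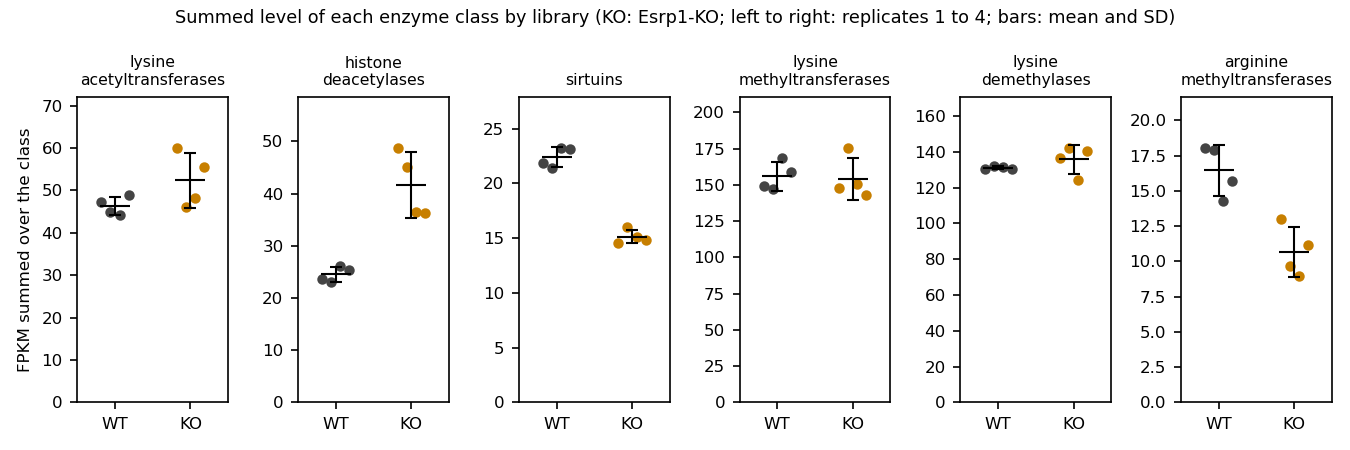
FPKM summed over all members of each class in each library, with WT and Esrp1-KO points in replicate order 1 to 4 and bars for the mean and SD. The groups do not overlap for the deacetylases, the sirtuins and the arginine methyltransferases, and overlap for the other 3 classes.

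Lysine methyltransferases, the largest class, changed in 1 of 15 members tested, beside 36.9% of all genes tested. The exception was Setd2 (ENSMUSG00000044791, chromosome 9, 110532597 to 110618633), which trimethylates lysine 36 of histone H3 along transcribed genes and is needed for the DNA methylation pattern of the oocyte. It had 8.95, 7.79, 13.1 and 8.13 FPKM in WT and 13.7, 21.8, 13.7 and 13.6 in Esrp1-KO. WT replicate 3 almost reached the Esrp1-KO libraries, and Esrp1-KO replicate 2 stood alone above the others. The mean rose 1.65-fold (9.50 ± 2.47 to 15.7 ± 4.08 FPKM, log2 fold change 0.67 ± 0.20 SE, adjusted p = 0.0262, limma). The call was lost with no filter (adjusted p = 0.0745) and without WT replicate 1, 2 or 4 or Esrp1-KO replicate 2 (log2 fold change 0.51 to 0.65, adjusted p = 0.0512 to 0.0711).

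Ezh2, the catalytic subunit of Polycomb repressive complex 2, was the most abundant methyltransferase. It had 33.2, 40.0, 37.7 and 34.1 FPKM in WT and 26.1, 38.2, 28.5 and 24.9 in Esrp1-KO. Replicate 2 of Esrp1-KO lay among the WT libraries and the other 3 lay below them. The fall did not pass (log2 difference −0.31, 95% interval −0.64 to 0.03, adjusted p = 0.138, limma). Leaving out Esrp1-KO replicate 2 brought it past the threshold (adjusted p = 0.0214). The alternative subunit Ezh1 went from 6.48 ± 0.35 to 7.67 ± 0.92 FPKM with groups that did not overlap, and did not pass either (adjusted p = 0.192, limma).

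The tested writers of methylation on lysine 9 of histone H3 did not pass. Suv39h2 had 27.9 ± 3.82 FPKM in WT and 27.5 ± 1.72 in Esrp1-KO, and its log2 difference had a 95% interval of −0.30 to 0.27. Setdb1 had 8.87 ± 0.88 and 7.12 ± 0.98 FPKM, Setdb2 9.47 ± 1.63 and 7.07 ± 1.25, and Ehmt1, which encodes GLP, 6.405 ± 0.81 and 7.61 ± 0.56. Setdb2 passed with the replicate number as a block (adjusted p = 0.0364 against 0.0967 without it, limma). Within pairs of paralogs the mRNA levels were uneven: Suv39h1 had at most 0.0927 FPKM, and Ehmt2, which encodes G9a, at most 0.0954.

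Of the methyltransferases that act on lysine 4 of histone H3, Kmt2c was the highest, with 22.1 ± 2.33 FPKM in WT and 20.5 ± 3.96 in Esrp1-KO. Kmt2d had 2.33 ± 0.31 and 2.67 ± 0.12 FPKM, and Kmt2b, which deposits much of this mark in the growing oocyte, 1.62 ± 0.46 and 1.82 ± 0.58. None of these passed. Kmt2e, a family member not known for strong methyltransferase activity, had 1.78 ± 0.15 and 2.37 ± 0.28 FPKM with groups apart, and exons of Srpk2 on the other strand cover 9.3% of it. It did not pass (adjusted p = 0.0922, limma), except with median-ratio scaling or quantile normalization (adjusted p = 0.0322 and 0.0246). Kmt2a, Kmt5c and Setd7 stayed at or below 0.0637 FPKM. Kmt5a, which monomethylates histone H4, had 6.94 ± 0.99 and 7.08 ± 0.28 FPKM. Setd3, Setd4 and Setd6 had means between 2.65 and 7.04 FPKM in both groups and did not pass. Setd1a shares 51.2% of its 50-base stretches with other genes, mainly the overlapping Gm49388, and had 0.687 to 1.201 FPKM.

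Lysine demethylases included the largest changes of the group in both directions, and 3 of 8 members tested passed, beside 36.9% of all genes tested. Kdm1b (ENSMUSG00000038080, chromosome 13, 47043499 to 47085279), also known as LSD2, removes methyl groups from lysine 4 of histone H3 and is needed in the oocyte to set maternal imprints. It had 16.6, 17.4, 19.8 and 14.9 FPKM in WT and 48.4, 29.3, 29.9 and 40.3 in Esrp1-KO. Every Esrp1-KO library was above every WT library, with replicates 1 and 4 highest. The mean rose 2.15-fold, from 17.2 ± 2.01 to 37.0 ± 9.14 FPKM (log2 fold change 1.04 ± 0.18 SE, adjusted p = 0.00152, limma). The size differed between pairs of replicates: with replicates 1 and 4 alone the log2 fold change was 1.43, and with replicates 2 and 3 alone it was 0.65, both past the threshold. Exons of Dek on the other strand cover 9.2% of Kdm1b. Dek itself had 63.9 ± 9.14 FPKM in WT and 62.4 ± 14.7 in Esrp1-KO.

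Kdm7a (ENSMUSG00000042599, chromosome 6, 39136623 to 39206789), which acts on repressive marks of histone H3, was the second most abundant enzyme mRNA of the group in WT. It had 40.6, 34.5, 32.9 and 36.7 FPKM in WT and 15.9, 17.0, 16.0 and 20.9 in Esrp1-KO, with a wide gap between the groups. It fell to 48.3% of WT (36.2 ± 3.34 to 17.5 ± 2.36 FPKM, log2 fold change −1.01 ± 0.13 SE, adjusted p = 0.000322, limma). Between 8675 and 10760 reads per library lay on it in WT and 4260 to 5946 in Esrp1-KO.

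Kdm4a (ENSMUSG00000033326, chromosome 4, 118136957 to 118180043), a demethylase for lysines 9 and 36 of histone H3, fell by a similar factor from a lower level. It had 6.89, 8.54, 5.54 and 6.89 FPKM in WT and 3.24, 2.44, 2.53 and 3.34 in Esrp1-KO. These values did not overlap, and the mean fell to 41.5% of WT (log2 fold change −1.03 ± 0.15 SE, adjusted p = 0.00066, limma). Its paralogs Kdm4b, Kdm4c and Kdm4d stayed at or below 0.508 FPKM, so Kdm4a was the main member of its subfamily in both groups.

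Kdm6a and Kdm6b, demethylases of lysine 27 of histone H3, were both abundant. Kdm6a, encoded on chromosome X, had 27.7, 31.7, 30.9 and 30.8 FPKM in WT and 34.96, 50.7, 34.7 and 32.4 in Esrp1-KO. All 4 Esrp1-KO libraries were above WT, by little except in replicate 2. It did not pass (log2 difference 0.30, 95% interval −0.03 to 0.64, adjusted p = 0.144, limma) except with median-ratio scaling (adjusted p = 0.0407). Kdm6b had 19.7 ± 2.20 FPKM in WT and 19.1 ± 4.50 in Esrp1-KO. Kdm1a, the LSD1 demethylase, had 7.89 ± 0.88 and 8.46 ± 1.02 FPKM, Kdm2b 4.78 ± 0.29 and 5.65 ± 0.90, and Kdm5c 4.08 ± 0.49 and 3.69 ± 1.05, and none of them passed. Kdm5d, which lies on chromosome Y, had at most 0.01 FPKM.

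Below the mean of 1 FPKM, 3 further demethylases were lower in every Esrp1-KO library than in any WT library. Kdm5b, which removes trimethylation at lysine 4 of histone H3, had 1.27, 0.384, 0.659 and 0.889 FPKM in WT and 0.105, 0.0946, 0.0759 and 0.173 in Esrp1-KO. These stood for 159 to 555 reads per library in WT and 36 to 81 in Esrp1-KO, a mean of 13.99% of WT. Kdm3a, a demethylase for lysine 9, had 0.296 to 0.572 FPKM (61 to 124 reads) in WT and 0.0594 to 0.233 (14 to 62 reads) in Esrp1-KO. Kdm2a, a demethylase for lysine 36, had 1.03 to 1.18 and 0.591 to 0.647 FPKM. In the fit with no filter the adjusted p was 0.0243 for Kdm5b, 0.0446 for Kdm3a and 0.0279 for Kdm2a (limma).

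Arginine methyltransferases had 1 changed member among 3 tested, beside 36.9% of all genes tested. Prmt2 (ENSMUSG00000020230, chromosome 10, 76207222 to 76237865), a coactivator-type enzyme, had 13.5, 14.1, 10.6 and 12.6 FPKM in WT and 9.30, 6.38, 6.16 and 7.43 in Esrp1-KO. The lowest WT library was close above the highest of Esrp1-KO. It fell to 57.7% of WT (12.7 ± 1.53 to 7.32 ± 1.43 FPKM, log2 fold change −0.73 ± 0.15 SE, adjusted p = 0.00457, limma). Prmt2 made up 74.2% to 80.1% of the summed FPKM of the class in WT and 66.1% to 71.6% in Esrp1-KO.

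Prmt5, the main enzyme of symmetric arginine dimethylation, was scarce and had 1.48, 1.40, 1.28 and 0.882 FPKM in WT and 0.938, 0.771, 0.714 and 0.733 in Esrp1-KO. It did not pass (log2 difference −0.33, 95% interval −0.63 to −0.04, adjusted p = 0.0732, limma). Leaving out WT replicate 4 brought it past the threshold (adjusted p = 0.0434). Prmt3, which modifies a ribosomal protein, had 1.18 ± 0.083 FPKM in WT and 1.17 ± 0.26 in Esrp1-KO, and Prmt1, the main asymmetric enzyme in most cells, 0.242 to 0.664 and 0.226 to 0.328. Prmt9 was low and higher in Esrp1-KO, with 0.116 to 0.314 FPKM (19 to 47 reads) against 0.473 to 0.636 (76 to 90 reads). It passed in the fit with no filter (adjusted p = 0.0412, limma). Prmt7 had 0.319 to 0.722 FPKM over all libraries, Prmt6 0.0249 to 0.497 and Prmt8 at most 0.0261.

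In 8 of the 37 members below the filter the groups did not overlap, 4 with Esrp1-KO above and 4 with WT above. Non-overlap holds for 9.77% of all genes below the filter, whose levels were not matched to those of the members. Besides those given, Kdm4b, Setd1b and Setd5, a gene linked to neurodevelopment, were above WT in every Esrp1-KO library, and Sirt5, a mitochondrial desuccinylase, was below. In the fit with no filter 4 of the 37 passed, 1 higher and 3 lower, while 4.7% of all genes below the filter did. Of the rest, 10 of the 37 were under 0.1 FPKM in every library. The undescribed remainder, Kdm3b, Kdm5a, Kdm8 and Kmt5b, lay between 0.208 and 1.22 FPKM.

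**Figure D4:**
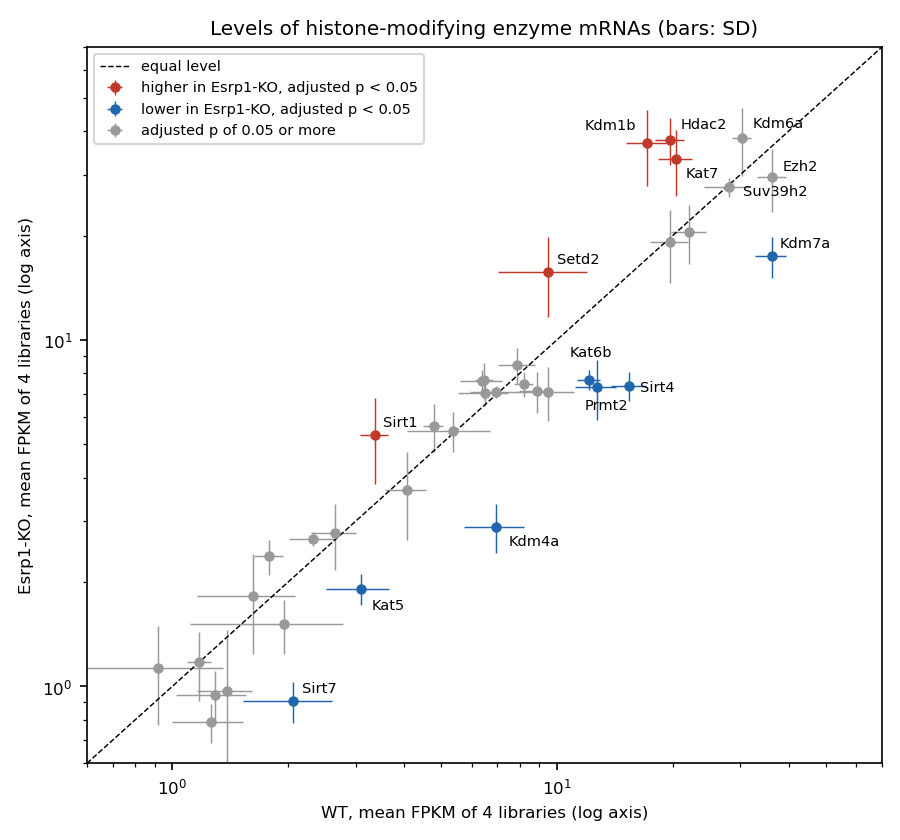
Mean FPKM of the 38 tested enzyme mRNAs in WT (x axis) and Esrp1-KO (y axis), both on log axes, with bars for the SD over 4 libraries and a dashed line of equal level. Kdm1b, Hdac2 and Kat7 join the most abundant members in Esrp1-KO, and Kdm7a leaves them.

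The order of abundance within the group differed between the genotypes. In WT the 5 highest means were Ezh2 (36.3 ± 3.15 FPKM), Kdm7a (36.2 ± 3.34), Kdm6a (30.3 ± 1.76), Suv39h2 (27.9 ± 3.82) and Kmt2c (22.1 ± 2.33), and among the first 12 only Kdm7a and Kdm6a, next to each other, had ranges that did not overlap. In Esrp1-KO the first 5 were Kdm6a (38.2 ± 8.43), Hdac2 (37.9 ± 5.79), Kdm1b (37.0 ± 9.14), Kat7 (33.2 ± 7.22) and Ezh2 (29.5 ± 6.04), each overlapping the next. Hdac2 went from rank 8 to 2, Kdm1b from 9 to 3, Kdm7a from 2 to 9 and Sirt4 from 10 to 16 among the 75. The total over all 75 was 397 ± 10.3 FPKM in WT and 410 ± 22.3 in Esrp1-KO, with overlapping libraries.

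Most of these enzymes work within complexes, whose other subunits were read from the same fit. The lists were chosen from general knowledge of the complexes. To set beside their counts and medians, 36.9% of all genes tested changed, with a median log2 fold change of −0.06. No list was tested as a set.

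**Figure D5:**
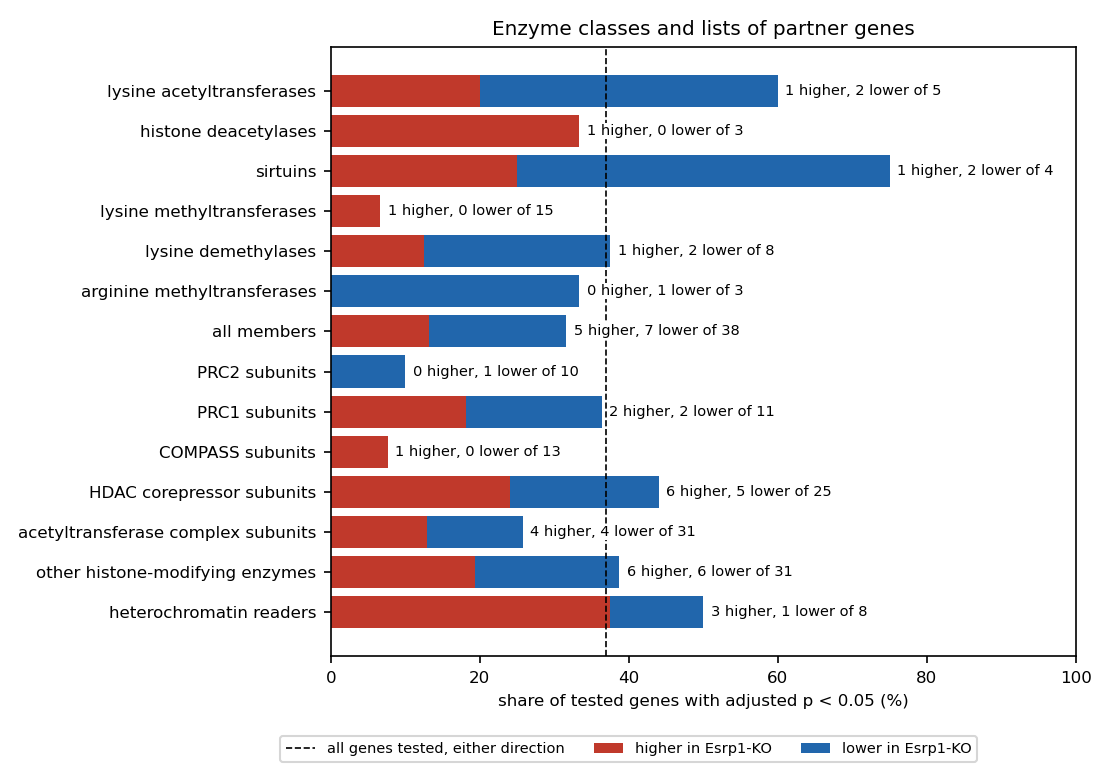
Share of tested genes with an adjusted p below 0.05 in each enzyme class and each list of partner genes (x axis, percent), split into higher (red) and lower (blue) in Esrp1-KO, with the numbers beside the bars. The dashed line is the 36.9% of all tested genes, and the bars lie on both sides of it.

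Of 10 tested subunits of Polycomb repressive complex 2, the complex of Ezh2, 9 did not pass and 1 fell (median log2 fold change of the list 0.08). The one that fell was the DNA-binding cofactor Aebp2, with 13.6, 13.4, 13.5 and 14.2 FPKM in WT and 4.23, 5.46, 4.96 and 4.19 in Esrp1-KO (log2 fold change −1.37, adjusted p = 3.65e-05, limma). Of 11 subunits of Polycomb repressive complex 1, a list that includes the member Kdm2b, 2 rose and 2 fell (median 0.02). The RYBP-related subunit Yaf2 fell to 20.6% of WT (112 ± 7.29 to 23.1 ± 2.80 FPKM) and Rnf2, the ubiquitin ligase of histone H2A, to 40.7% (53.5 ± 7.18 to 21.8 ± 1.48). Pcgf6 rose 1.48-fold from a high level (171 ± 15.8 to 254 ± 37.98 FPKM). Phc2 rose 1.39-fold with overlapping groups (adjusted p = 0.0473, limma), a call lost in 11 of 18 alternatives.

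The COMPASS subunits, partners of the Kmt2 and Setd1 enzymes, gave 1 higher and none lower of 13 tested (median 0.21). The riser was Hcfc2, from 2.47 ± 0.43 to 6.04 ± 0.90 FPKM. Of 25 subunits of deacetylase corepressors, the partners of Hdac2, 6 rose and 5 fell (median 0.04). The scaffold Sin3b rose 3.02-fold (9.01 ± 1.64 to 27.2 ± 3.36 FPKM). Sap18 (1.81-fold, 42.0 ± 7.56 to 76.3 ± 25.9 FPKM, adjusted p = 0.0272, limma) and Sap30 (1.23-fold, 287 ± 19.999 to 352 ± 15.8, adjusted p = 0.0458), also of Sin3 complexes and named after their values were seen, rose too. The calls of Sap18 and Sap30 were lost with no filter (adjusted p = 0.0853 and 0.0745, limma). Of the stretches of Sap18, 15.3% occur in other genes. Other Sin3 subunits fell, namely Arid4a to 30.3% of WT (13.1 ± 0.56 to 3.98 ± 0.30), the reader Ing1 to 38.5% (35.1 ± 2.70 to 13.5 ± 2.25) and Brms1l to 39.7% (5.69 ± 0.54 to 2.26 ± 0.32).

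Subunits of acetyltransferase complexes were even in direction, with 4 higher and 4 lower of 31 (median 0.08). Sgf29, a reader in SAGA (8.04 ± 0.96 to 14.8 ± 2.91 FPKM), and Mrgbp, of the complex of Kat5 (7.15 ± 0.72 to 11.3 ± 1.08), rose. The SAGA subunit Tada1 (6.19 ± 1.31 to 3.05 ± 0.89) and the reader Ing5, a partner of Kat6 and Kat7 enzymes (10.3 ± 1.40 to 4.87 ± 0.63), fell. Of the stretches of Tada1, 33.1% occur in other genes.

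Histone-modifying enzymes outside the name patterns gave 6 higher and 6 lower of 31 (median 0.01). Hat1, which acetylates new histone H4, rose 2.10-fold (53.3 ± 4.67 to 112 ± 17.9 FPKM), the ubiquitin-conjugating enzyme Ube2a 2.40-fold (7.23 ± 1.29 to 17.3 ± 2.52) and the histone H3 kinase Aurkb 2.63-fold (7.63 ± 1.18 to 20.03 ± 3.37). Kat14, an acetyltransferase of the ATAC complex, was another riser, named after its values were seen (1.49-fold, 4.55 ± 0.42 to 6.80 ± 0.76 FPKM, adjusted p = 0.0116, limma). The kinase Rps6ka5 fell to 45.1% of WT (10.999 ± 1.05 to 4.96 ± 0.42). Of 8 heterochromatin readers and partners 3 rose and 1 fell (median 0.38): Cbx1, which encodes HP1 beta (11.2 ± 0.97 to 19.4 ± 4.18 FPKM), the histone chaperone Daxx (7.34 ± 1.31 to 14.7 ± 5.34) and the corepressor Trim28 (11.2 ± 1.71 to 15.9 ± 1.84) rose, and the remodeller Atrx (61.0 ± 4.36 to 39.5 ± 3.78) fell. The call of Trim28 was lost in 4 of 18 alternatives.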

How the data were processed

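The authors deposited FPKM per Ensembl gene for each of 8 libraries, per the file headers, from reads on GRCm38, per the submitters' processing notes. Which aligner, counter and gene models were used is not given in the sources used here. Symbols, types and positions came from GENCODE M21, which matched 24812 of 24860 genes. FPKM times exon length fell on whole reads, within 0.02 of a read, for 90.0% to 90.6% of the values above 0, which gave the depth, and for 68 of the 75 members in all 8 libraries. Reads are quoted only for these.

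The fit used limma (version 3.58.1, under R 4.3.3) and took log2(FPKM + 1) of genes averaging 1 FPKM or more. Genotype was the only term, the prior variance followed a trend with intensity, tests were two-sided and p-values were adjusted by Benjamini-Hochberg. The steps were tested on simulated data, with rises placed in genes that were not scarce. Of the 1.5-fold rises 32 of 67 (47.8%) were called, and of the 2-fold rises 67 of 67. Of 175 calls 10 were false. A member that did not pass may therefore still differ by 1.5-fold. Same-numbered libraries, numbered in the titles, deviated together (r = 0.226 to 0.317 over genes in the 4 pairs), but so did some of different numbers: r was 0.402 for WT replicate 4 with Esrp1-KO replicate 1, 0.252 for WT replicate 3 with Esrp1-KO replicate 2 and 0.176 for WT replicate 2 with Esrp1-KO replicate 3. A replicate block was run as an alternative. Other alternatives were pseudocount, filters, scalings, no trend, each library left out, and replicates 1 and 4 or 2 and 3 alone.

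Every member past the threshold is named, the highest member of each class is given per library, and up to 4 changed genes per partner list. Members below the threshold or the filter were described after their values were seen. Members, lists and alternatives were chosen with earlier results of these data known. For shared sequence, each 50-base stretch of a gene's transcripts was looked up among those of all other M21 genes.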

Additional observations from a re-analysis of the deposited data

Results flagged for a closer look

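In groups of 4 libraries, a library was marked where its gap to the nearest other, as a share of the whole range, exceeded Dixon's 95% critical value. This held in 7 of 130 groups checked, and chance gives about 1 in 20. Esrp1-KO replicate 2 stood above the others for Setd2 (21.8 FPKM against 13.6 to 13.7) and for Kdm6a (50.7 against 32.4 to 35.0). Without that library the log2 fold change of Setd2 was 0.51 and no longer passed (adjusted p = 0.0512, limma). WT replicate 2 stood above the others for Kat8 (3.19 FPKM against 1.38 to 1.61) and for Kat6a (8.90 against 7.90 to 8.02). Esrp1-KO replicate 1 was high for Ezh1 (9.04 FPKM against 7.12 to 7.34), and low for Yaf2 (18.99 against 23.9 to 24.9) and Ing1 (10.2 against 14.3 to 15.04), which remained past the threshold without it.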

How the results depend on the processing

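Of the 12 changed enzymes, 5 (Hdac2, Kdm1b, Kdm4a, Kdm7a and Sirt4) passed in every one of the up to 18 alternatives that tested them. None of the 12 changed direction, but with groups that did not overlap only the scalings could have turned one. Kat6b and Kat7 were lost with replicates 2 and 3 alone (adjusted p = 0.107 and 0.0994), Prmt2 with replicates 1 and 4 alone (0.0572) and Sirt7 with either pair (0.0710 and 0.0800). Kat5, Setd2 and Sirt1 were lost in 7, 6 and 10 alternatives. With replicates 2 and 3 alone 2 enzymes rose and 4 fell, and with replicates 1 and 4 alone 4 rose and 4 fell. A mean of at least 5 FPKM left 23 enzymes tested, of which 4 rose and 4 fell. Leaving out each library in turn gave 3 to 5 higher (3 without WT replicate 1, 2 or 4 or Esrp1-KO replicate 2) and 6 to 8 lower. Over all genes 668 rose and 996 fell with a mean of at least 5 FPKM. With replicates 1 and 4 alone 675 rose and 1339 fell, and with replicates 2 and 3 alone 569 rose and 879 fell. With the replicate block 5 enzymes rose and 8 fell, Setdb2 being added, and it changed no other call among the enzymes. Of 26 enzymes that did not pass, 9 turned sign in at least 1 alternative (Kdm6b, Kmt2b, Kmt2c, Kmt5a, Prmt3, Setd3, Setd4, Setd6 and Suv39h2), and no fold change is quoted for these. Of the 22 partner genes named by rule, 15 passed in every alternative that tested them. The cause of these differences was not tested. Depth does not limit the abundant members, but genes under 0.1 FPKM rest on few reads.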
